A study of Mus musculus with 8 samples.

Results

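The renin-angiotensin and endothelin systems are the main peptide systems that set tone, growth and filtration in the glomerulus, and *Ren1*, *Agt*, *Ace*, *Enpep*, *Agtr1a*, *Edn1*, *Ednra*, *Ednrb* and *Ece1* were read in glomeruli that lack the tetraspanin CD151. These 9 genes were listed by their known roles, and a row of the signal table counted as theirs when its gene symbol was the same. Of the 9 genes 8 had a row, 12 probes in all, out of 25697 probes with 18120 gene symbols. No row carried the symbol *Ren1*, so renin itself was not analysed here under that name. A row for *Ren2*, a near copy of *Ren1* that some mouse strains carry beside it, is described below. Both *Ace* probes were detected in no mouse, which left 10 probes of 7 genes for the test.

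Glomeruli came from 4 Cd151+/+ and 4 Cd151-/- male mice of the FVB/N strain at 3 weeks of age, each mouse hybridised to 1 Illumina MouseRef-8 v1.1 array. The Cd151-/- mice carry a homozygous deletion in every cell, and the controls share their strain, sex and age. The glomeruli were pulled out of digested kidneys with magnetic beads perfused through the heart, so the isolate holds podocytes, endothelium and mesangium together with whatever arteriole and tubule stayed attached. Levels below are normalised log2 signals with the SD over 4 mice, and differences are Cd151-/- minus Cd151+/+ on the same scale.

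Renin, made in the wall of the afferent arteriole, cuts angiotensinogen (*Agt*) to angiotensin I. Angiotensin-converting enzyme (*Ace*) turns angiotensin I into angiotensin II, which constricts the arterioles and the mesangium through the type 1 receptor (*Agtr1a*) until aminopeptidase A (*Enpep*) trims it. Endothelin-1 (*Edn1*) is a vasoconstrictor released by endothelium after its precursor is cut by endothelin-converting enzyme (*Ece1*), and it acts on the A receptor (*Ednra*) of contractile cells and on the B receptor (*Ednrb*), which endothelium also carries.

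The deletion showed on the arrays, since all 3 probes of *Cd151* passed detection in every Cd151+/+ mouse and in no Cd151-/- mouse, the brightest at least 523-fold lower in the latter. Between 11291 and 12359 probes were detected per array. The arrays had backgrounds of 2 kinds, each kind on 4 arrays with 2 mice of each genotype, one at 58.3 to 69.1 (Cd151+/+ mice 1 and 2, Cd151-/- mice 3 and 4) and one at 122 to 132 (the other 4 mice). Cd151-/- mouse 4 stood apart in some of the cell type markers. Its mean log2 signal over 9 proximal tubule genes was 11.25, against 9.14 to 10.62 in the other 7 mice, and its means for the podocyte (11.47 against 11.82 to 12.11), endothelial (10.51 against 10.56 to 11.47) and mesangial (8.40 against 8.72 to 9.57) lists were the lowest of the 8 mice. For the endothelial list it was the lowest by little, with Cd151-/- mouse 1 next at 10.56. Of 8 podocyte genes with a row 6 passed detection in at least 1 mouse, as did 10 of 10 endothelial genes. In such a mixed isolate, fewer cells of a type and less RNA per cell cannot be told apart.

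None of the 10 member probes passed Benjamini-Hochberg adjustment in limma. At an unadjusted p of 0.05 the count was 1 of 10, the *Agt* probe, higher in Cd151-/- glomeruli. Over all 14967 probes tested, 1.69% were higher and 2.61% lower at that threshold, and 0.0334% passed the adjustment. These last were 5 probes, among them the 3 probes of the deleted gene *Cd151*. No member probe separated the genotypes without overlap, in either direction, where 0.855% of all probes did so on the higher and 1.46% on the lower side. With 1 probe a gene, 3 of the 7 member genes had a higher and 4 a lower mean in Cd151-/- mice, with a median difference of -0.01. Over all 11227 genes tested the median was 0.00, with 5580 higher and 5647 lower.

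**Figure D1:**
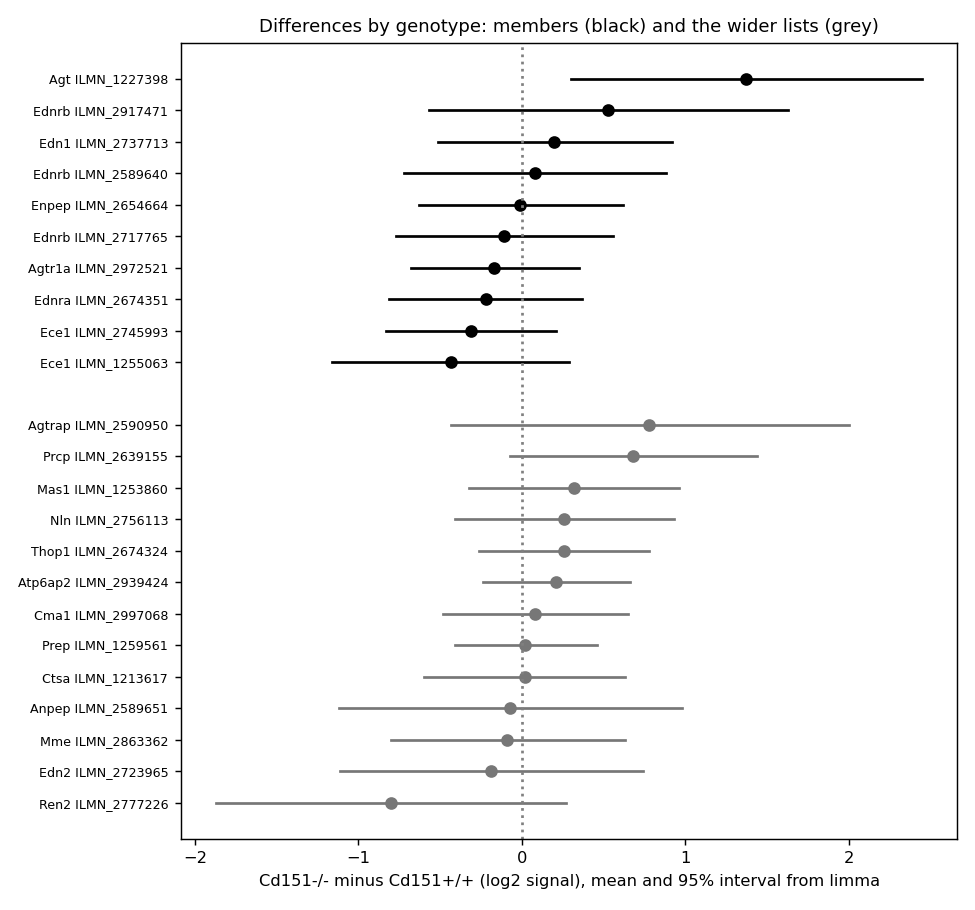
Difference between genotypes (Cd151-/- minus Cd151+/+, log2 signal) for every tested member probe in black and for the brightest probe of each tested gene of the wider lists in grey, with 95% intervals from limma. The interval of *Agt*, from 0.30 to 2.45, is the only one that lies wholly on one side of 0, and that of *Ren2* reaches from -1.87 to 0.27.

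*Agt* encodes angiotensinogen, the sole precursor of the angiotensins, which in the kidney is known mainly from the proximal tubule. Its probe (ILMN_1227398) had log2 signals of 5.01, 5.41, 4.90 and 5.87 in Cd151+/+ mice 1 to 4. In Cd151-/- mice 1 to 4 the log2 signals were 6.54, 6.00, 5.82 and 8.32. The signal passed detection in 1 of 4 Cd151+/+ mice (mouse 4) and in 4 of 4 Cd151-/- mice. Cd151-/- mouse 3 lay just below Cd151+/+ mouse 4, so the groups overlapped by this pair, and Cd151-/- mouse 4 lay far above all others. The means were 5.30 ± 0.44 and 6.67 ± 1.14, a difference of 1.37 (SE 0.49, 95% interval 0.30 to 2.45), with an unadjusted p of 0.0172 and an adjusted p of 0.918 in limma. Since 3 of the 4 Cd151+/+ mice were not above background, the size of the difference depends on how the background is handled and no fold is given. Without the normexp background correction the difference was 0.64 and its unadjusted p 0.0555 in limma, and with the variance of each probe taken alone the count at 0.05 was 0 of 10 as well. The exact permutation test over the 70 relabelings gave p = 0.0571, where 0.0286 is the smallest value it can give.

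Much of the size of the *Agt* difference came from 1 mouse, while the direction did not. Without Cd151-/- mouse 4 the difference was 0.82 (SE 0.30, unadjusted p = 0.0212, adjusted p = 0.934 in limma), and leaving out any single mouse gave 0.82 to 1.66. Over all settings tried the adjusted p ranged from 0.0885 to 1. The difference was 1.86 within the arrays of lower background and 0.88 within those of higher background. Within each set both Cd151-/- mice lay above both Cd151+/+ mice. With the array set as a block *Agt* had an unadjusted p of 0.0199 and an adjusted p of 0.386 in limma. Under that block 1690 of the 14967 probes tested had an unadjusted p of 0.05 or lower. The proximal tubule list moved the same way as *Agt*. All 9 tubule genes tested had a higher mean in Cd151-/- mice, with a median difference of 0.61, or 0.49 without mouse 4, and 1 of them passed an unadjusted p of 0.05. That gene was *Kap*, a proximal tubule gene of unsettled function, with 6.70, 8.37, 7.62 and 7.37 in Cd151+/+ and 8.70, 7.99, 8.13 and 10.76 in Cd151-/- mice (difference 1.38, SE 0.57, unadjusted p = 0.0337, adjusted p = 0.918 in limma). Without Cd151-/- mouse 4 the *Kap* difference was 0.76 (unadjusted p = 0.0720 in limma), and 0 of the 9 genes passed. Of the 9 tubule genes 7 were highest in Cd151-/- mouse 4, the mouse that was highest for *Agt*. The part of the tubule signal in the *Agt* difference was not tested.

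**Figure D2:**
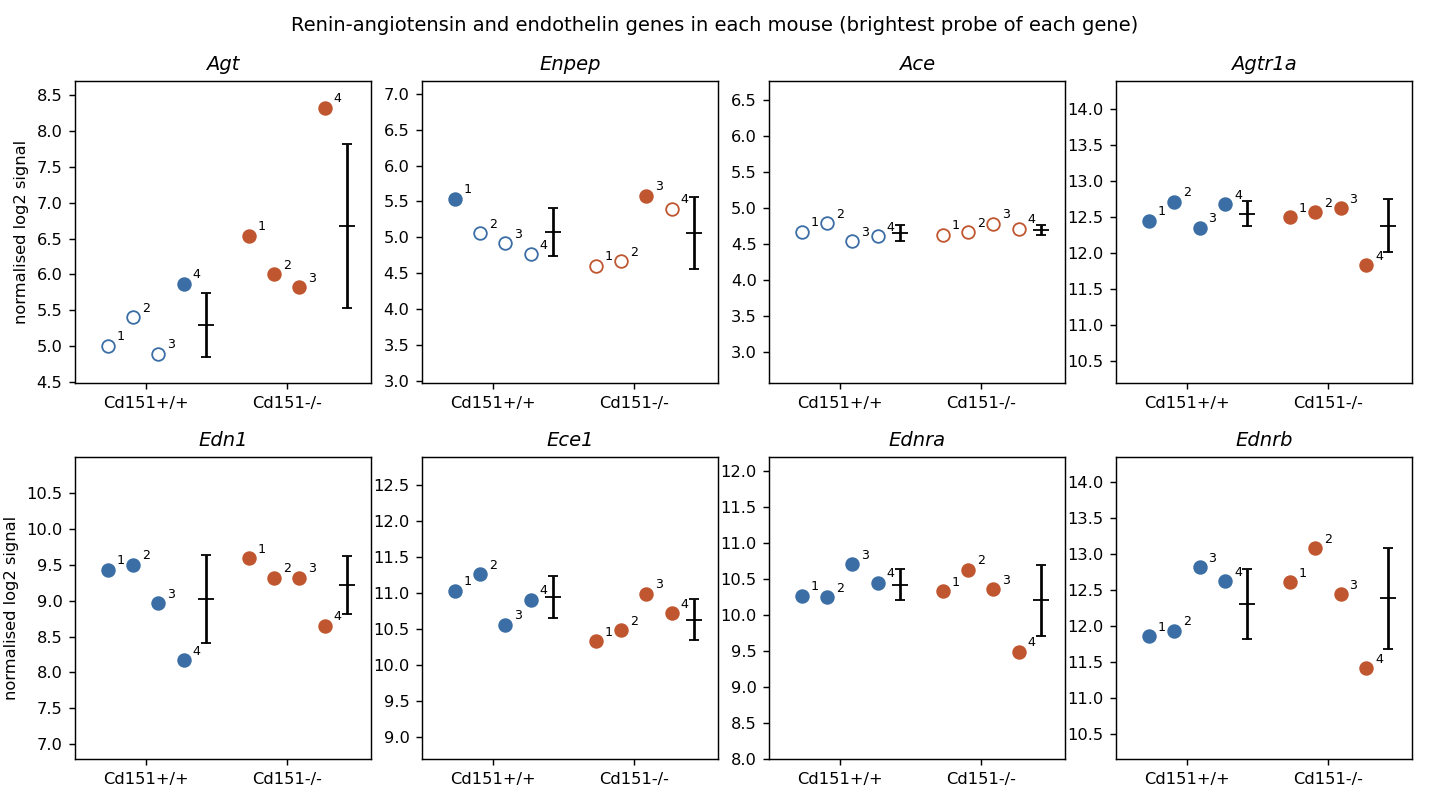
Normalised log2 signal of the brightest probe of each member gene in each mouse (numbered points, filled where the signal passed detection and open where it did not), with the mean and SD of the 4 mice of each genotype beside them. Each panel spans the same log2 range but starts at its own level. *Agt* stood higher in Cd151-/- mice with mouse 4 at 8.32, and the same mouse was the lowest of all 8 for *Agtr1a*, *Ednra* and *Ednrb*.

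Of the enzymes that make and clear angiotensin II, the members *Ace* and *Enpep* were at or near background. *Ace* was read by a pair of probes, and neither passed detection in any mouse. ILMN_2613682 stood at 4.65 ± 0.10 in Cd151+/+ and 4.70 ± 0.06 in Cd151-/- mice, and ILMN_2613683 at 4.76 ± 0.22 and 4.58 ± 0.12. These levels are background levels, so no fold is given, and neither probe entered the main limma test. *Enpep*, a podocyte and tubule peptidase, passed detection in 1 of 4 mice of each genotype (Cd151+/+ mouse 1 and Cd151-/- mouse 3). Its log2 signals were 5.54, 5.06, 4.92 and 4.77 in Cd151+/+ mice and 4.61, 4.67, 5.58 and 5.40 in Cd151-/- mice. The groups overlapped over most of their range, with means of 5.07 ± 0.33 and 5.07 ± 0.49 and a difference of -0.01 (SE 0.28, 95% interval -0.63 to 0.62). The interval allows a change of some size in either direction, and for a probe this close to background the log2 scale understates a change.

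**Figure D3:**
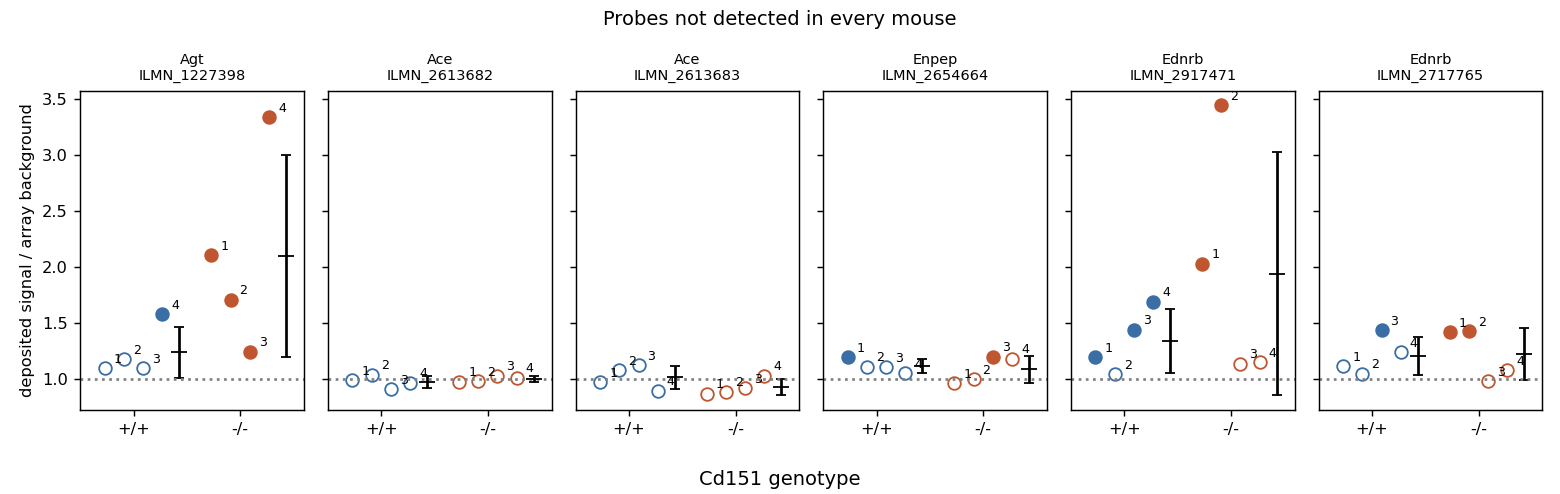
Deposited signal divided by the background of the same array for the 6 member probes that were not detected in every mouse (numbered points, filled where detected), with mean and SD for each genotype and a dotted line where signal equals background. Both *Ace* probes lie near the line in all 8 mice, and *Agt* is farthest above it in Cd151-/- mouse 4 and passes detection in every Cd151-/- mouse but in only 1 Cd151+/+ mouse.

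*Agtr1a*, the type 1a angiotensin II receptor of mesangial and smooth muscle cells, was detected in all 8 mice by its single probe (ILMN_2972521). Its log2 signals were 12.45, 12.71, 12.35 and 12.68 in Cd151+/+ mice and 12.50, 12.57, 12.62 and 11.83 in Cd151-/- mice. The other 7 mice thus lay between 12.35 and 12.71 whatever their genotype, and Cd151-/- mouse 4 lay below. The difference of -0.17 (SE 0.24, 95% interval -0.68 to 0.35, exact permutation p = 0.571) was within the spread between mice, and it was 0.02 without Cd151-/- mouse 4.

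*Edn1*, which encodes the precursor of endothelin-1, was detected in all 8 mice (ILMN_2737713). Its log2 signals were 9.43, 9.50, 8.96 and 8.17 in Cd151+/+ mice and 9.59, 9.32, 9.32 and 8.65 in Cd151-/- mice. The highest mouse was Cd151-/- mouse 1 and the lowest Cd151+/+ mouse 4, with the groups overlapping between. The means were 9.01 ± 0.61 and 9.22 ± 0.40, a difference of 0.20 (SE 0.33, 95% interval -0.51 to 0.92, exact permutation p = 0.657).

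The sign of the *Edn1* difference depended on the arrays. Within the arrays of lower background it was -0.48, and within those of higher background 0.89, each from 2 mice of each genotype. A test of the change between the sets, chosen after these values were seen, gave 1.38 (SE 0.47, unadjusted p = 0.0176, adjusted p = 0.977 in limma). Over all probes 3.51% had an unadjusted p of 0.05 or lower in that test and 0 passed adjustment. Without Cd151+/+ mouse 4 the *Edn1* difference was -0.08, and without Cd151-/- mouse 4 it was 0.40. What sets the arrays apart beside their background is not given in the sources used here.

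*Ece1*, which cuts big endothelin to endothelin-1, had a lower mean in Cd151-/- glomeruli on both of its probes, with neither past the threshold. The brighter probe (ILMN_2745993) read 11.03, 11.26, 10.56 and 10.91 in Cd151+/+ mice and 10.33, 10.48, 10.99 and 10.72 in Cd151-/- mice. The groups overlapped, with Cd151+/+ mouse 3 among the lower values and Cd151-/- mouse 3 among the higher. Its difference was -0.31 (SE 0.24, 95% interval -0.83 to 0.21), with an unadjusted p of 0.215 and an adjusted p of 0.918 in limma and 0.2 in the exact permutation test. Within the array sets the difference was -0.29 and -0.33, and without Cd151-/- mouse 4 it was -0.34, all below 0. Leaving out any single mouse gave -0.44 to -0.20. The glomerular endothelium list also had lower means, with 1 gene higher and 9 lower of the 10 tested and a median difference of -0.32. Without Cd151-/- mouse 4 that median was -0.29, with 3 higher and 7 lower. In both cases 0 of the 10 reached an unadjusted p of 0.05 in limma. The part of the endothelial signal in the *Ece1* difference was not tested. The dimmer probe (ILMN_1255063) read 7.17 ± 0.47 in Cd151+/+ and 6.73 ± 0.58 in Cd151-/- mice, a difference of -0.43 (SE 0.33, 95% interval -1.16 to 0.29, exact permutation p = 0.286), with -0.25 and -0.61 within the sets and -0.68 to -0.23 with a mouse left out. These probes read the same gene in the same RNA and are not separate evidence. With limma's array weights, which gave each array its own weight, the differences were -0.58 and -0.89 and both reached an unadjusted p below 0.05, at 0.0140 and 0.00767, and neither passed adjustment (adjusted p = 0.0980 and 0.0908, and up to 1 in the other settings), a setting under which 4816 of the 14967 probes tested reached that threshold.

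**Figure D4:**
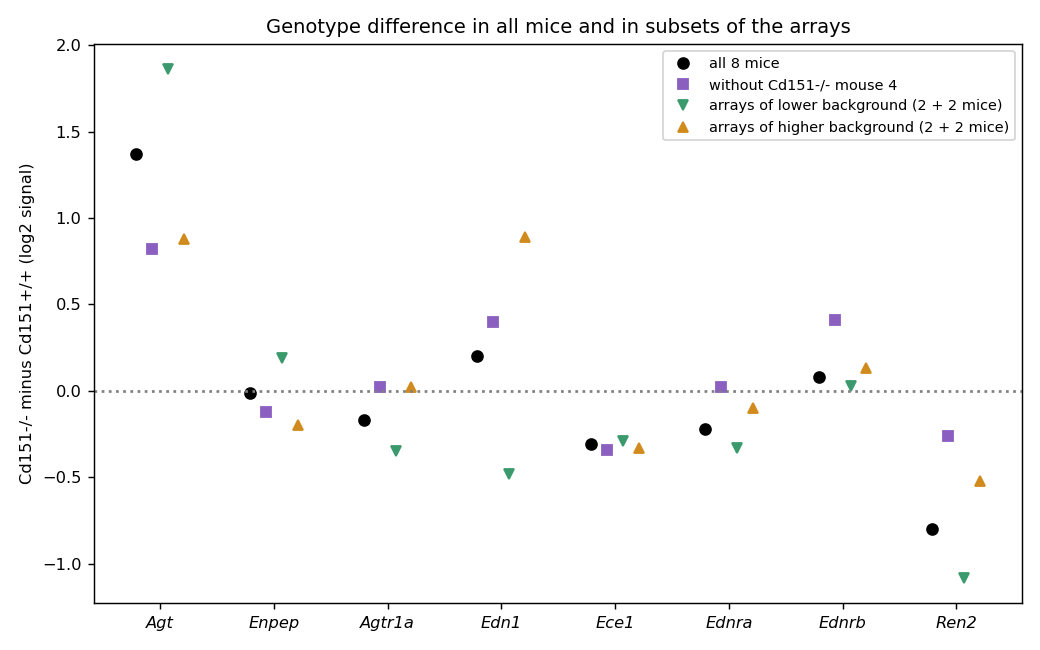
Difference between genotypes (Cd151-/- minus Cd151+/+, log2 signal) for the brightest probe of each tested member and of *Ren2*, in all 8 mice, without Cd151-/- mouse 4 and within each set of arrays. *Ece1* lies between -0.34 and -0.29 in all 4 settings, *Edn1* turns from -0.48 to 0.89 between the sets, and *Agt* stays above 0 at 0.82 to 1.86.

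The endothelin receptors were both detected in every mouse. *Ednra*, the A receptor through which endothelin-1 contracts mesangial and smooth muscle cells, read 10.27, 10.25, 10.71 and 10.45 in Cd151+/+ mice and 10.33, 10.63, 10.36 and 9.49 in Cd151-/- mice (ILMN_2674351). As for *Agtr1a*, Cd151-/- mouse 4 lay below the other 7, which ranged from 10.25 to 10.71 with no gap between genotypes. The difference was -0.22 (SE 0.27, 95% interval -0.81 to 0.37, exact permutation p = 0.571) and 0.02 without that mouse.

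*Ednrb*, the B receptor that clears endothelin-1 and drives nitric oxide release in endothelium, read 11.85, 11.93, 12.81 and 12.62 in Cd151+/+ mice and 12.60, 13.08, 12.44 and 11.41 in Cd151-/- mice on its brightest probe (ILMN_2589640). Cd151-/- mice held both the highest and the lowest value. The means of 12.30 ± 0.48 and 12.38 ± 0.70 differed by 0.08 (SE 0.36, 95% interval -0.72 to 0.88, exact permutation p = 0.886), and by 0.41 without Cd151-/- mouse 4 (unadjusted p = 0.212). The other probes of the gene were dim and did not point one way. ILMN_2917471 passed detection in 3 of 4 Cd151+/+ and 2 of 4 Cd151-/- mice, with a difference of 0.53 (SE 0.50, 95% interval -0.57 to 1.63) that rested on Cd151-/- mouse 2 at 7.55 and was 0.05 without it. The same difference was 0.83 without Cd151-/- mouse 4 and 1.15 with array weights, where its unadjusted p was 0.0202 and its adjusted p 0.108 in limma. ILMN_2717765 passed detection in 1 of 4 and 2 of 4 mice, with a difference of -0.11 (SE 0.30).

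Across the members, Cd151-/- mouse 4 was the lowest of the 8 mice for 3 of the 7 genes tested (*Agtr1a*, *Ednra* and *Ednrb*) and the highest for 1 (*Agt*). Over all 11227 genes tested it was the lowest for 2003 and the highest for 2033. Its marker means were the lowest of the 8 mice for the podocyte, endothelial, mesangial, renin cell and distal nephron lists, and the highest for the proximal tubule list. The distal nephron mean was 8.80 against 8.86 to 9.96 in the other 7, so it was the lowest by little. The endothelial mean, 10.51 against 10.56 to 11.47, was also the lowest by little. By gene, this mouse was the lowest for 2 of 6 in the distal nephron list and 2 of 6 in the podocyte list. In the endothelial, mesangial and renin cell lists it was the lowest for 5 of 10, 4 of 8 and 2 of 5. In the proximal tubule list it was the highest for 7 of 9. With that mouse left out, the median difference of the 7 members was 0.02, and the count at an unadjusted p of 0.05 was still 1, for *Agt*. The part of the cell mixture in the receptor values of this mouse was not tested.

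**Figure D5:**
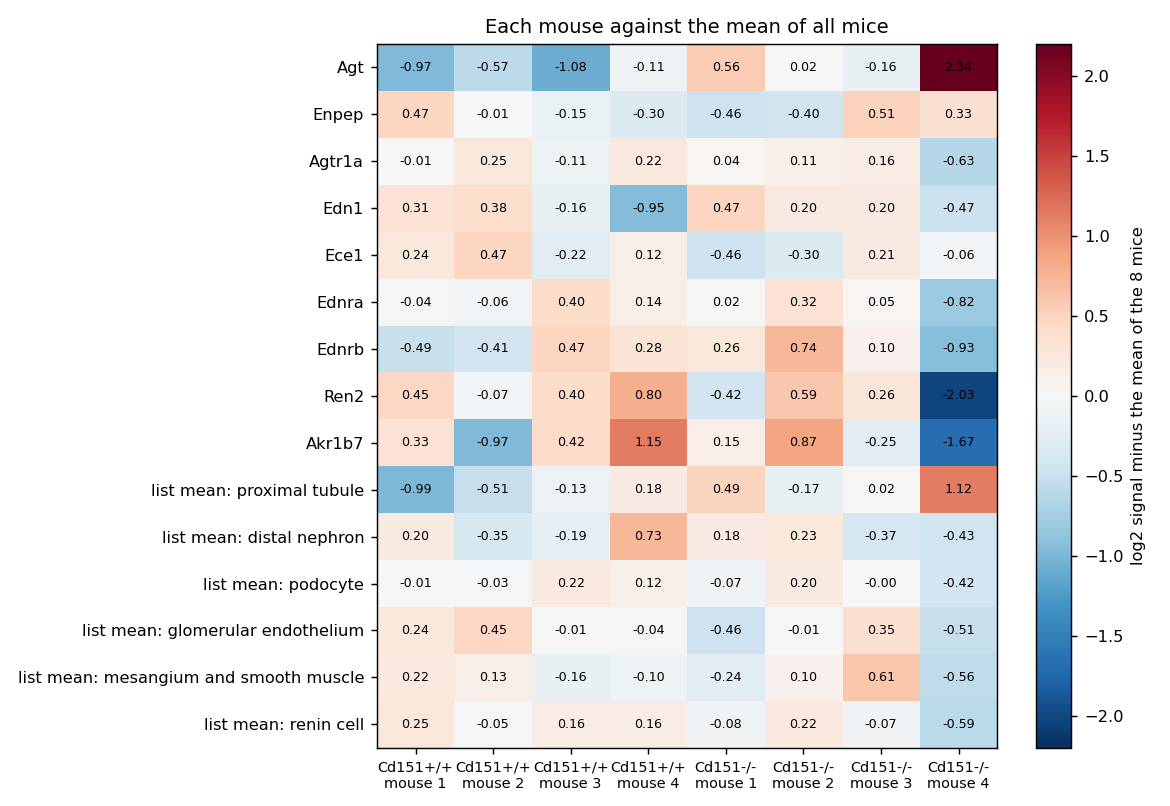
Each mouse's log2 signal minus the mean of the 8 mice, for the tested members, for *Ren2* and *Akr1b7*, and for the mean of each cell type list, as numbers on a colour scale from blue (below the mean) to red (above). Cd151-/- mouse 4 is the lowest for *Ren2* at -2.03 and highest for *Agt* at 2.34 and for the proximal tubule list at 1.12.

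*Ren2* was the only renin row among the listed symbols. *Ren1* and *Ren2* are near copies, and a probe of one may read the other, so this signal cannot be assigned to 1 renin gene here. Its probe (ILMN_2777226) read 12.58, 12.06, 12.53 and 12.93 in Cd151+/+ mice and 11.71, 12.72, 12.39 and 10.10 in Cd151-/- mice. The groups overlapped, and Cd151-/- mouse 4 was the lowest by far, with mouse 1 next. The difference of -0.80 (SE 0.49, 95% interval -1.87 to 0.27) had an unadjusted p of 0.128 and an adjusted p of 0.918 in limma, and p = 0.229 in the exact permutation test. It was -0.26 without Cd151-/- mouse 4, and -1.13 without Cd151-/- mouse 2, where the unadjusted p was 0.0369 and the adjusted p 0.920, within a range of 0.330 to 1 over the settings tried in limma. The renin cell list, which includes the renin cell aldose reductase *Akr1b7* and the connexin *Gja5*, had 0 of 5 tested genes at an unadjusted p of 0.05 in limma and a median difference of -0.46, which was 0.02 without that mouse. *Akr1b7* itself lay at 6.96 in Cd151-/- mouse 4 and at 7.66 to 9.78 in the other 7 mice.

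The wider renin-angiotensin list showed no gene past the threshold without a block. Of its 20 genes, *Ren2* among them, all had a row and 12 were tested, and 0 of the 12 reached an unadjusted p of 0.05 in limma, with 9 higher and 3 lower in Cd151-/- mice and a median difference of 0.15 (0.05 without Cd151-/- mouse 4). Among the 8 that passed detection in no mouse were the receptors *Agtr1b*, *Agtr2* and *Mrgprd* and the proteases *Lnpep*, *Ctsg*, *Cpa3* and *Klk1*. Nearest to the threshold was *Prcp*, a carboxypeptidase that can degrade angiotensin II, with a difference of 0.68 (SE 0.34, unadjusted p = 0.0708 in limma). Its log2 signals of 9.69, 9.60, 10.49 and 10.83 in Cd151+/+ mice and 10.96, 10.51, 10.39 and 11.49 in Cd151-/- mice overlapped, and the difference was 1.29 and 0.08 within the array sets of lower and higher background. *Agtrap*, which binds the type 1 receptor and promotes its internalisation, differed by 0.78 (SE 0.55, unadjusted p = 0.184 in limma). It read 5.55, 6.28, 7.70 and 7.58 in Cd151+/+ mice and 8.37, 8.30, 6.43 and 7.14 in Cd151-/- mice, and within each array set both Cd151-/- mice lay above both Cd151+/+ mice (differences of 0.87 and 0.69). With the array set as a block *Agtrap* had an unadjusted p of 0.00551 and an adjusted p of 0.356 in limma. It was then the 1 gene of the 12 past 0.05, under a setting in which 1690 of the 14967 probes were.

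Of 5 further endothelin genes only *Edn2*, a sister peptide of endothelin-1, was detected in any mouse. Its difference was -0.19 (SE 0.42), with Cd151+/+ mouse 1 at 7.92 and the other 7 mice between 5.67 and 6.49. *Edn3*, *Ece2*, *Ecel1* and *Kel* were detected in no mouse and did not enter the main limma test.

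Downstream, the angiotensin and endothelin receptors signal through Gq, phospholipase C and calcium release, with G12 proteins beside them. Of 20 genes of that list 18 were tested, and 2 were lower at an unadjusted p of 0.05 in limma. In all, 7 were higher and 11 lower, with a median of -0.11 (0.02 without Cd151-/- mouse 4). Over all 11227 genes tested, 213 were higher and 278 lower at that threshold. *Itpr3*, an inositol trisphosphate receptor that releases calcium, read 10.09, 10.15, 9.34 and 9.35 in Cd151+/+ mice and 8.41, 9.02, 9.44 and 8.33 in Cd151-/- mice. Only Cd151-/- mouse 3 reached into the range of the Cd151+/+ mice. Its difference was -0.94 (SE 0.31, unadjusted p = 0.0124, adjusted p = 0.918 in limma, exact permutation p = 0.0857), and -0.78 without Cd151-/- mouse 4. *Rgs4*, which shortens Gq signalling, read 9.62, 9.05, 10.06 and 9.75 in Cd151+/+ mice and 8.83, 9.35, 8.88 and 8.06 in Cd151-/- mice, with only Cd151-/- mouse 2 above the lowest Cd151+/+ mouse. The difference was -0.84 (SE 0.31, unadjusted p = 0.0204, adjusted p = 0.918 in limma, exact permutation p = 0.0571) and -0.60 without Cd151-/- mouse 4 (unadjusted p = 0.0599). With the array set as a block in limma 4 of the 18 were lower at that threshold, *Gna12* (-0.54, unadjusted p = 0.0107) and *Arrb1* (-0.69, unadjusted p = 0.0248) besides these. Under that block 1690 of the 14967 probes tested reached the threshold in either direction. A dimmer *Arrb1* probe (ILMN_2698985) was lower by limma without the block as well, with a difference of -0.93 (unadjusted p = 0.0109, adjusted p = 0.918), while the other 4 probes of that gene were not past the threshold.

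The genes that control renin release, such as adenylyl cyclases, nitric oxide synthases and the connexin *Gja5*, gave 0 of 7 tested at an unadjusted p of 0.05 in limma, with 1 higher and 6 lower and a median of -0.26. With the array set as a block 1 of the 7 did, the adenylyl cyclase *Adcy6* (-0.62, unadjusted p = 0.0285, adjusted p = 0.415 in limma). That block brought 1690 of the 14967 probes tested to the threshold. In the mesangium and smooth muscle list, which holds the cells that carry *Agtr1a* and *Ednra*, 8 genes were tested. Without the block 2 reached that threshold, in opposite directions. Over all 11227 genes tested, 213 were higher and 278 lower at it. *Acta2*, the smooth muscle actin, read 11.12, 10.61, 10.94 and 10.91 in Cd151+/+ mice and 11.92, 12.01, 11.44 and 11.05 in Cd151-/- mice (difference 0.71, SE 0.26, unadjusted p = 0.0185, adjusted p = 0.918 in limma). Its other probes gave 0.50 (ILMN_2710354, unadjusted p = 0.0768) and 0.36 (ILMN_2710353, unadjusted p = 0.244). Without Cd151-/- mouse 4 the *Acta2* differences were 0.90 on the brightest probe, 0.72 on ILMN_2710354 and 0.62 on ILMN_2710353. Their unadjusted p-values were then 0.00382, 0.00831 and 0.0259 in limma, with an adjusted p of 0.934 for each. Over all genes tested, 186 were higher and 166 lower at 0.05 without that mouse. *Pdgfrb*, the growth factor receptor of mesangial cells, read 9.54, 9.97, 9.50 and 9.39 and then 8.59, 8.86, 9.76 and 8.24 (difference -0.74, SE 0.32, unadjusted p = 0.0399, adjusted p = 0.918 in limma), and its difference was -0.53 without Cd151-/- mouse 4 (unadjusted p = 0.117). *Agtr1a* and *Ednra* differed by no more than the spread between mice.

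For the members detected on all 8 arrays, the genes whose pattern over the 8 mice was closest were found by Pearson correlation among 7416 genes, as a description of these arrays. *Ednrb* went with *Slc24a6* (r = 0.995), *AI449175* (0.986) and *Sema5a* (0.980). *Ednra* went with *BC039093* (r = 0.986), *Rpl23* (0.980) and *Nfe2l1* (0.977), and *Ece1* with *Ttyh3* (0.984), *Rnf10* (0.979) and *Drpla* (0.973). *Agtr1a* went with *Tuba1b* (r = 0.946), *Rai14* (0.944) and *Mycbpap* (0.939), and *Edn1* with *Syt11* (0.946), *Eif3s7* (0.945) and *AV312086* (0.927). The 8 points share the array sets and the deviating Cd151-/- mouse 4, and these are the highest of 7416 values for each member.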

How the data were processed

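Glomerular RNA was amplified, biotin-labelled and hybridised by the authors to Illumina MouseRef-8 v1.1 arrays. The authors deposited, per the file headers, the signal intensity of each probe on each array, neither background-subtracted nor normalised, and a detection p-value against the array's negative controls. GenomeStudio is named in the labels. In R 4.3.3 with limma 3.58.1, the background was inferred from the detection p-values, neqc was applied (offset 16, quantile normalisation), and the genotypes were fitted with lmFit and eBayes. The test took in 14967 of 25697 probes, those that some array detected (p-value up to 0.05), with Benjamini-Hochberg adjustment over all of them. Single probes were tested with the two-sided exact permutation test over 70 relabelings. The bound for *Cd151* is against the lowest detected signal on each Cd151-/- array. Of several probes for 1 gene the brightest on average is reported. The other probes of the members stand beside it, and those of other genes are given where their call differs, except for *Aqp1* (tubule list) and *Coro1a* (leukocyte list), each with dimmer probes at an unadjusted p below 0.05.

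Groups came from the sample labels, each mouse being 1 replicate. The members, the gene lists and the alternatives were chosen with earlier results of these data known. Every member probe is given, wider pathway genes by counts, and genes of other lists only at an unadjusted p of 0.05 or as cell type checks. *Prcp*, *Agtrap*, *Akr1b7*, *Gna12*, *Arrb1* and *Adcy6* were named after their values were seen. Older symbols were matched to the GRCm38.p6 gene table (5 list genes through a synonym). Mice with the same number in both genotypes did not deviate together (r = -0.58, -0.40, -0.53 and -0.01). Each such pair was split between the sets of lower and higher background, so this check cannot decide whether the mice were paired. The labels name no pairs, and numbers were not taken as pairs. The procedure was tested on simulated data. The number of arrays, and the signal of detected probes at 3.02 to 4.56 times background at the median, limit the precision. The alternatives were other background corrections, offsets, normalisations, filters, blocks, weights, variances and tests, SAM with all 70 relabelings and an FDR under 0.2 among them, and each mouse left out. No sequence is printed, and other experiments of the study were not analysed here. Some single genes are not reported here.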

Additional observations from a re-analysis of the deposited data

Results flagged for a closer look

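In 2 of 26 groups of 4 mice (each probe of the members and *Ren2*, in each genotype), 1 mouse lay so far from the rest that its gap to the nearest mouse, as a share of the range of the group, exceeded Dixon's 95% critical value, and chance gives such a gap in about 1 of 20 groups. For *Agtr1a* (ILMN_2972521) this was Cd151-/- mouse 4, the lowest of its genotype, with a share of 0.849, at 11.83 against 12.50 to 12.62 in the other 3. For *Ace* (ILMN_2613683) it was Cd151-/- mouse 4 as the highest, with a share of 0.837, at 4.76 against 4.50 to 4.54, where no mouse passed detection and the values are background. The same mouse was 8.32 for *Agt*, where the share was 0.710.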

How the results depend on the processing

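No member probe was called under any of the 22 settings tried, by Benjamini-Hochberg adjustment or, with SAM, at an FDR under 0.2. The 1 member probe at an unadjusted p of 0.05 became 0 without normexp and with an equal-variance test, and 4 with array weights. *Agt* stayed higher in Cd151-/- mice throughout, at 0.64 to 1.86. Over all probes, 643 at an unadjusted p of 0.05 became 389 with scaling to the 75th percentile, 1094 with no detection filter, 1690 with the array set as a block, 4816 with array weights and 353 to 1408 with a mouse left out (353 for mouse 1 of either genotype, 403 for the Cd151+/+ mouse 2, 1000 for the Cd151+/+ mouse 4, 1408 for the Cd151-/- mouse 3). With the mouse number as a replicate block, as if paired, they were 420, with no change in the calls of the members. The 5 probes past adjustment became 8 with the array set as a block, 3 with the equal-variance test, and 4 to 6 with a mouse left out. SAM, at the looser FDR of 0.2, called 91 on quantile and 80 on cubic-spline values, so test and threshold both changed there. *Enpep* turned to 0.01 with an offset of 50, and the dim *Ednrb* probe ILMN_2717765 to 0.28 with array weights. For *Ednrb* the probes disagree in sign, 0.08 on the brightest and -0.11 on ILMN_2717765. With a mouse left out, *Ednrb* ranged from -0.15 to 0.41 (ILMN_2717765 from -0.25 to 0.12), *Enpep* from -0.18 to 0.15, *Edn1* from -0.08 to 0.40, *Agtr1a* from -0.25 to 0.02 and *Ednra* from -0.36 to 0.02. Scaling to the 75th percentile moved the median of all probes to -0.071. Signal near background limits *Ace*, *Enpep*, *Agt* and the dim *Ednrb* probes.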
